A study of Homo sapiens with 8 samples.

Results

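Aminoacyl-tRNA synthetases are the enzymes that load each amino acid onto its tRNA, and the stability of 36 of their mRNAs was followed here after transcription had been blocked. The members were chosen by name, as nuclear genes that encode these enzymes, and RefSeq accessions in the files were matched to the current symbols, with older symbols such as AARS allowed. All 36 had a value in both deposited tables, out of 13341 genes with a value in either. They comprised 18 enzymes of the cytosol, 16 of mitochondria, and GARS1 and KARS1, which serve both compartments. The cells were SW480, an established human colorectal adenocarcinoma line that the series text calls a breast cancer line. Its libraries fell into 4 groups of 2: cells with a stably expressed control shRNA without amanitin (0 h), the same cells after 9 h of alpha-amanitin at 10 µg/mL, cells with an shRNA against RBMS1 at 0 h, and those cells after 9 h of alpha-amanitin. RBMS1 is an RNA-binding protein, and alpha-amanitin is a mushroom toxin that stops RNA polymerase II. The series text names 2 RBMS1 shRNA clones and the sample labels 1 of them. The labels do not say whether libraries of the same group are separate cultures.

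Each deposited table held 1 log fold change per RefSeq transcript, read here as log2 of 9 h over 0 h, so that a value below 0 means less of the mRNA at 9 h relative to the rest of the library. Libraries were already combined, no level, read count or p-value accompanied the values, and read depth is unknown. No difference between genes or cell populations could therefore be set against the spread between replicates, and no test was run. A gene's value is the mean over its listed transcripts, and the difference between cell populations is the knockdown value minus the control value over transcripts in both tables, centred on the median of all genes. Of 8 colon epithelial markers 7 were listed, KRT20 and VIL1 among them for control cells alone. Of 10 markers of blood, immune, vascular, connective tissue and liver cells LYZ alone was listed. The tables hold no levels, so this checks only that a gene passed the authors' listing, and the knockdown of RBMS1 cannot be checked either.

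Each synthetase recognises 1 amino acid and its tRNAs, activates the amino acid with ATP and transfers it to the tRNA end. Cells need a set for cytosolic translation and another, mostly from separate nuclear genes, for the tRNAs of mitochondria. The enzymes fall into class I and class II, which have unrelated catalytic folds, and several cytosolic ones are held with scaffold proteins in a multisynthetase complex. They are classical housekeeping genes, and many cytosolic ones are known targets of ATF4, the transcription factor of the amino acid response.

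Synthetase mRNAs lay close to the middle of the transcriptome in control cells. Their median was 0.07, against −0.07 for all genes, and 21 of 36 lay above 0, against 45.9% of all genes. A value of −1 or below was held by 1 member, VARS2, against 10.7% of all genes, and a value of 1 or above by 1, TARS1, against 4.84%. In knockdown cells the median was 0.02, against −0.05 for all genes, and 20 of 36 lay above 0, against 46.6%. There no member lay at −1 or below, against 9.49% of all genes, and QARS1 alone lay at 1 or above, against 5.25%. The values of VARS2, TARS1 and QARS1 were each set by 1 of several transcripts, at −7.11, 9.59 and 7.98 per the authors' deposited tables. Values above 0 are relative to the library. Set against the median of 81 cytosolic ribosomal protein mRNAs, 0.41 in control cells and 0.37 after knockdown, the median of all genes moved to −0.48 and −0.42, and only 3 members in control cells and 2 after knockdown lay above 0.

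The clearest values came from 20 members with 1 listed transcript, 10 cytosolic, 9 mitochondrial and GARS1. Of these, 17 lay within 0.5 of 0 in control cells and 17 in knockdown cells, against 62.1% and 64.5% of all genes with 1 listed transcript. The order of the mRNAs was similar in both cell populations, with Spearman's rho of 0.88 and Pearson's r of 0.94 over these 20 genes. Across all 7273 genes with 1 listed transcript in both tables the values were 0.78 and 0.71. The 2 tables come from different libraries, genes are not independent replicates, and these coefficients only describe the tables.

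**Figure D1:**
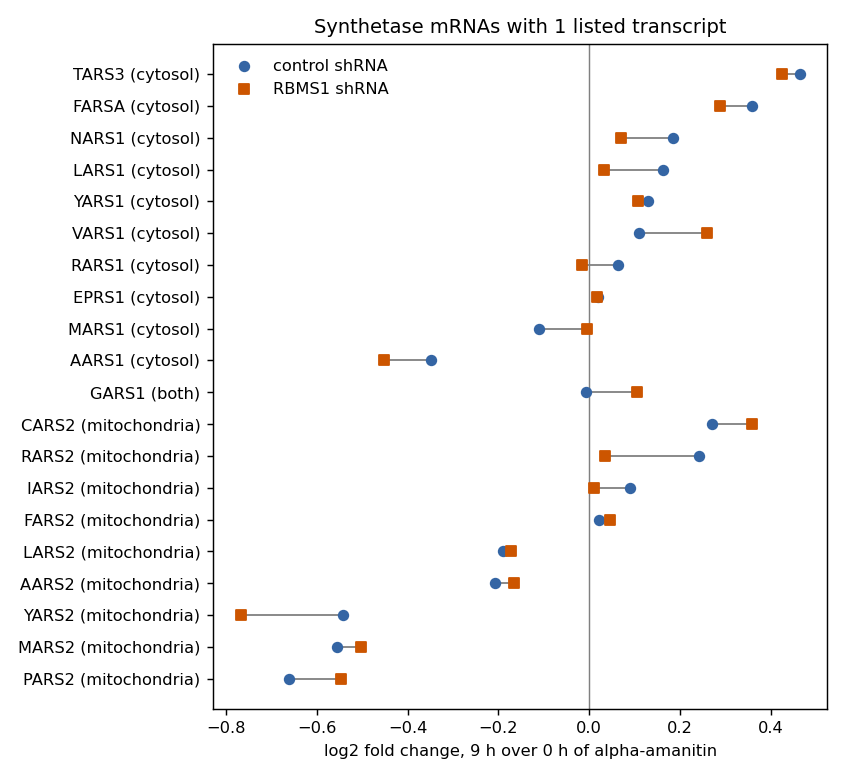
Log2 fold change at 9 h over 0 h of alpha-amanitin (x axis) for the 20 synthetase genes with 1 listed transcript, with circles for control shRNA cells, squares for RBMS1 shRNA cells and a line joining the values of a gene. Cytosolic mRNAs run from −0.45 for AARS1 to 0.46 for TARS3, and the lowest values belong to the mitochondrial enzymes PARS2, MARS2 and YARS2.

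Among cytosolic enzymes with 1 listed transcript, TARS3, a second cytosolic threonyl-tRNA synthetase, was highest, at 0.46 in control cells and 0.43 after knockdown per the authors' deposited tables. FARSA, the alpha subunit of phenylalanyl-tRNA synthetase, followed at 0.36 and 0.29 per the authors' deposited tables. AARS1, the alanyl enzyme, was the lowest, at −0.35 and −0.45 per the authors' deposited tables. The other 7 lay between these, all of them closer to 0 than FARSA. NARS1, the asparaginyl enzyme, was at 0.18 and 0.07, and YARS1, the tyrosyl enzyme, at 0.13 and 0.11 per the authors' deposited tables. VARS1, the valyl enzyme, stood at 0.11 in control cells and 0.26 after knockdown per the authors' deposited tables.

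The multisynthetase complex holds several of the cytosolic enzymes. The 7 members that belong to it had a control median of 0.11, with all 7 within 0.5 of 0, and 12 cytosolic enzymes outside it had a median of 0.18, with 10 within 0.5, against 59.8% of all genes. EPRS1, the fused glutamyl-prolyl enzyme, was at 0.02 in both cell populations per the authors' deposited tables. LARS1, the leucyl enzyme, was at 0.16 and 0.03, RARS1, the arginyl enzyme, at 0.06 and −0.02, and MARS1, the methionyl enzyme, at −0.11 and −0.01 per the authors' deposited tables. IARS1, the isoleucyl enzyme, had transcripts at 0.05 and 0.16 in control and at 0.02 and −0.08 after knockdown per the authors' deposited tables. The coding transcript of QARS1, the glutaminyl enzyme, was at 0.29 and 0.10, whereas a non-coding one listed for knockdown cells alone, at 7.98 per the authors' deposited table, lifted the gene to 4.04 there. Of the scaffold proteins of the complex, AIMP1 was at 0.32 and 0.15 and AIMP2 at −0.50 and −0.53 per the authors' deposited tables. EEF1E1, the remaining scaffold protein, had means of 0.01 and −0.05 over 2 transcripts per the authors' deposited tables.

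Among members with 1 listed transcript, mitochondrial enzymes reached further down than cytosolic ones. PARS2, the mitochondrial prolyl enzyme, was at −0.66 in control cells and −0.55 after knockdown per the authors' deposited tables. MARS2, the methionyl enzyme, which is encoded by an intronless gene, was at −0.56 and −0.50, and YARS2, the tyrosyl enzyme, at −0.54 and −0.77 per the authors' deposited tables. These 3 were the only members with 1 listed transcript that lay outside 0.5 of 0, and they did so in both cell populations. AARS2, the alanyl enzyme, was at −0.21 and −0.17 and LARS2, the leucyl enzyme, at −0.19 and −0.17 per the authors' deposited tables. Above 0 in both tables were CARS2, the cysteinyl enzyme, at 0.27 and 0.36, RARS2, the arginyl enzyme, at 0.24 and 0.04, IARS2, the isoleucyl enzyme, at 0.09 and 0.01, and FARS2, the phenylalanyl enzyme, at 0.02 and 0.05, again per the authors' deposited tables.

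The comparison of compartments gave a control median of 0.15 for the 18 cytosolic and −0.20 for the 16 mitochondrial enzymes, a gap of 0.34 or, with 1 listed transcript, of 0.31 between medians of 0.12 and −0.19. In control cells 14 of 18 cytosolic and 6 of 16 mitochondrial mRNAs lay above 0, against 45.9% of all genes. The ranges overlapped widely, from −0.51 to 1.42 and from −1.94 to 0.53. In knockdown cells 10 of 18 and 8 of 16 lay above 0, against 46.6% of all genes. The ranges there ran from −0.98 to 4.04 for cytosolic and from −0.77 to 0.36 for mitochondrial mRNAs, so the lowest value was a cytosolic one. The medians there were 0.02 and −0.07, a gap of 0.09. That smaller gap depends on how transcripts are combined. It was 0.22 over genes with 1 listed transcript, 0.20 with coding accessions alone, 0.37 with the principal coding transcript of each gene (the isoform that the APPRIS tag of GENCODE marks as the main one), and 0.00 with GARS1 and KARS1 counted as mitochondrial.

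For 13 amino acids a cytosolic and a mitochondrial enzyme, each from a gene of its own, could be set side by side. The cytosolic mRNA had the higher value for 10 of 13 amino acids in control cells, with a median gap of 0.29, and for 7 of 13 in knockdown cells, with a median gap of 0.01. With principal coding transcripts it was higher for 10 in control cells and 8 after knockdown, with median gaps of 0.30 and 0.22. For 5 amino acids both enzymes had 1 listed transcript, and each of these gaps had the same sign in both tables. For tyrosine the cytosolic mRNA lay above the mitochondrial one by 0.67 in control cells and 0.88 after knockdown, for methionine by 0.45 and 0.50, and for leucine by 0.35 and 0.20. For alanine and arginine the mitochondrial mRNA was the higher one, with cytosolic minus mitochondrial gaps of −0.14 and −0.29 for alanine and −0.18 and −0.05 for arginine. By class, the control median was 0.08 over 18 class I and 0.02 over 17 class II enzymes (EPRS1 carries a domain of each class). The knockdown medians were 0.03 and −0.10. Within the cytosol the control order was the other way, at 0.11 for 9 class I and 0.25 for 8 class II enzymes. Within mitochondria the control medians were −0.19 for 9 class I and −0.21 for 7 class II enzymes.

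**Figure D2:**
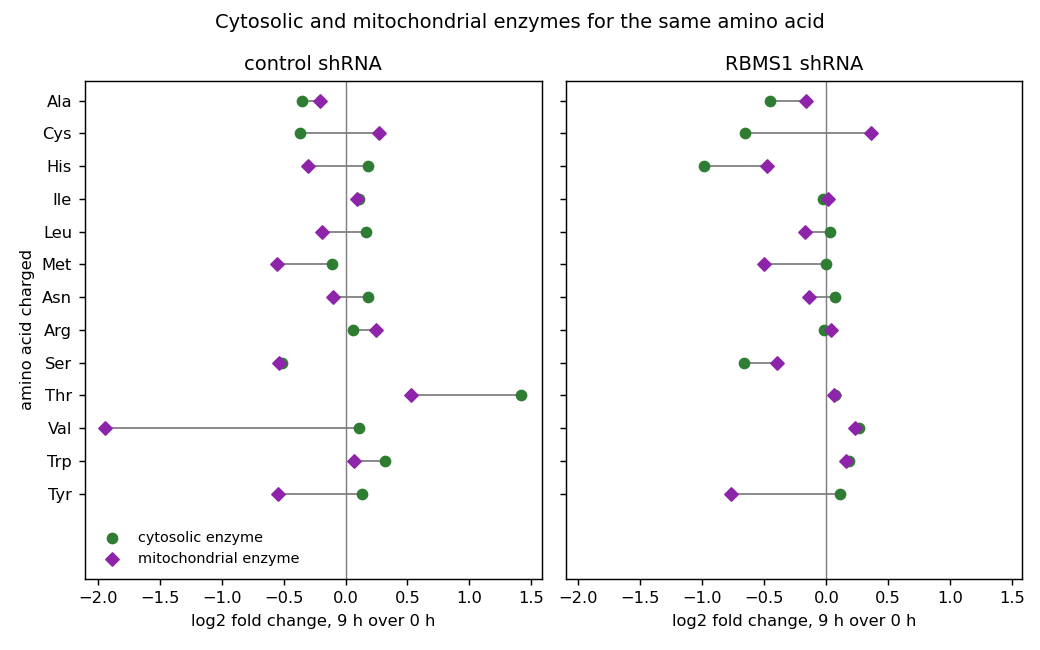
Log2 fold change at 9 h over 0 h (x axis) of the cytosolic (circles) and mitochondrial (diamonds) enzyme for each of 13 amino acids, as the mean over listed transcripts, in control shRNA cells on the left and RBMS1 shRNA cells on the right. The cytosolic enzyme is to the right for 10 amino acids in control cells and 7 after knockdown, and the long Val and Thr lines of control cells include transcripts at −7.11 of VARS2, at 9.59 of TARS1 and at 5.83 of TARS2 per the authors' deposited table.

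GARS1 and KARS1 make the glycyl and lysyl enzymes for both compartments. GARS1 was at −0.01 in control cells and 0.11 after knockdown per the authors' deposited tables. KARS1 (chromosome 16, 75627724 to 75647665, minus strand, GRCh38) is described here by its coding starts, because its compartments are served by mRNAs that differ there. Both listed transcripts share their last 1729 coding bases, which exclude the stop codon, and differ before them. The coding starts follow 5′ to 3′ from the ATG, from GENCODE 29, with the bases particular to each transcript in capitals and the first shared bases in lower case.
KARS1 cytosolic form: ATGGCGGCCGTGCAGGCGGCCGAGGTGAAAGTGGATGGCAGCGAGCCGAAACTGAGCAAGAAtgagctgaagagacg
KARS1 mitochondrial form: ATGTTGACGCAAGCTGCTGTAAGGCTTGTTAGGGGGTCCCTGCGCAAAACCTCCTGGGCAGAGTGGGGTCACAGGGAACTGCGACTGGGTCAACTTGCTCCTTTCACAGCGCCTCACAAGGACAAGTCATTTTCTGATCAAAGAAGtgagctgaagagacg
The mitochondrial form thus carries 146 coding bases of its own, which include the mitochondrial targeting signal, against 62 in the cytosolic form, and has 15 exons against 14. The cytosolic form was at 0.48 in control cells and 0.37 after knockdown and the mitochondrial form at 0.15 and 0.30 per the authors' deposited tables. Their centred differences were −0.10 and 0.16. Reads from the shared bases cannot tell the forms apart.

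HARS1 and HARS2, the cytosolic and mitochondrial histidyl enzymes, are neighbours that are read in opposite directions from starts 84 bases apart on chromosome 5. The stretch between the starts, shown because it can serve as a promoter for both genes, is given on the plus strand from RefSeq (GRCh38.p14), chr5:140691351-140691474, with the first 20 transcribed bases of each gene in capitals, HARS1 on the left (its complement is the transcript) and HARS2 on the right.
HARS1 to HARS2: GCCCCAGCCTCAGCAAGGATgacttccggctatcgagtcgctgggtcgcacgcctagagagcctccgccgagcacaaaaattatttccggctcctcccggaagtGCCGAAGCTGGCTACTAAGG
The bases between the starts are 59.5% G or C. Principal coding transcripts of the neighbours did not have like values after the block. That of HARS1 was at 0.14 in control cells and 0.18 after knockdown, and that of HARS2 at −0.61 and −1.33 per the authors' deposited tables. The other HARS2 transcripts were at −0.67 and 0.38 in control and at −0.64 and 0.54 after knockdown per the authors' deposited tables, so that isoforms of 1 gene lay on both sides of 0.

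The comparison of knockdown with control cells asked whether loss of RBMS1 went with another stability of these mRNAs. The 36 centred differences had a median of −0.04, with 15 above 0, and ran from −1.33 to 2.19. VARS2 was the only member at 1 or above, against 4.86% of all genes, and HARS1 and TARS1 were the 2 at −1 or below, against 4.16%. TARS2 lay just short of the bound at 0.999. All 4 had several listed transcripts. At 0.5 or above were 3 members, VARS2, TARS2 and EARS2, against 12.4% of all genes. The 20 members with 1 listed transcript ran from −0.21 for YARS2 to 0.17 for VARS1, so all 20 lay within 0.25 of 0, against 65.3% of all genes with 1 listed transcript. RARS2 at −0.19, PARS2 and GARS1 at 0.13 and MARS1 at 0.12 were the next furthest from 0. By principal coding transcripts, all 18 cytosolic mRNAs lay within 0.25 of 0, as did GARS1 and KARS1 and 10 of 16 mitochondrial ones, against 60.5% of all genes. In control cells all 18 cytosolic and 12 of 16 mitochondrial principal transcripts lay within 0.5 of 0, against 62.2%. After knockdown all 18 cytosolic but 8 of 16 mitochondrial ones did, against 64.0%. The bounds of 0.5 and 0.25 and the principal transcripts were chosen after the values had been seen.

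Medians of the centred difference were −0.11 for cytosolic and 0.05 for mitochondrial enzymes, a gap of −0.15. This gap did not hold its sign. It was −0.08 over genes with 1 listed transcript, 0.02 with the transcript of smallest value in each gene, and 0.00 with principal coding transcripts.

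The large values of the family came from genes with several transcripts. Of the 69 listed transcripts 49 belonged to 16 such genes, and 45 of these were in both tables. Over those 45 the control and knockdown values had a Spearman's rho of 0.17 and a Pearson's r of −0.01, a description of isoforms that share reads within a gene. A centred difference of 1 or more in size was found for 14 of the 45, 9 higher and 5 lower in knockdown cells, against 25.6% of transcripts in both tables from all genes with several. By kind of accession, it was found for 9 of 57 coding transcripts of all members, against 17.0% of all coding ones. For non-coding transcripts it was found for 5 of 8, from TARS1, EARS2 and FARSB, the last at −1.01, against 23.3%. That share covers all non-coding transcripts, those of non-coding genes included. The 8 are isoforms of coding genes with several transcripts, so the sets are unlike. In 8 of 14 genes with several transcripts in both tables, 4 cytosolic and 4 mitochondrial, the transcripts differed from each other by 1 or more, against 53.7% of all such genes.

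**Figure D3:**
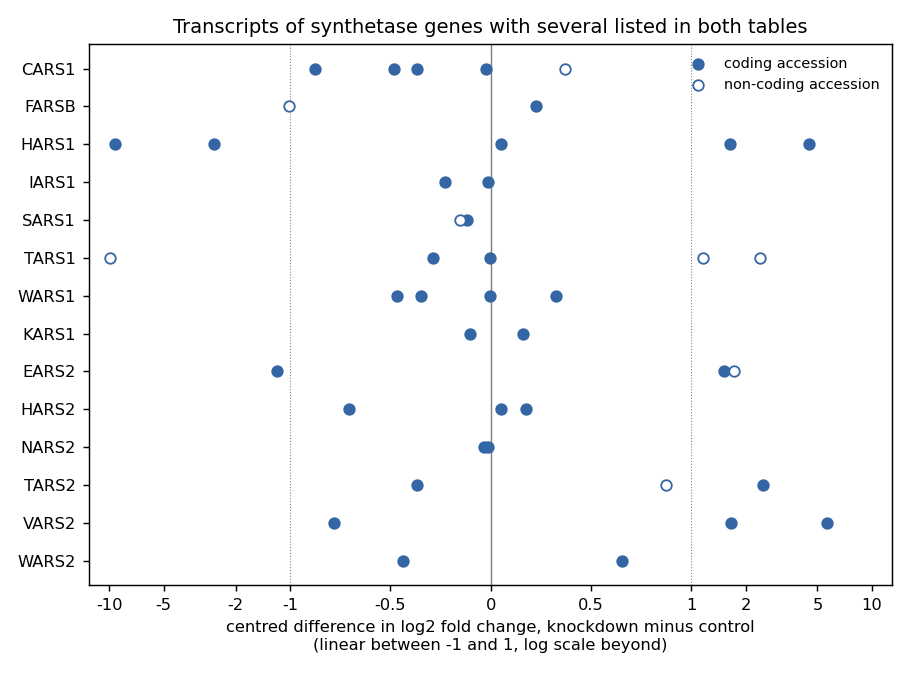
Centred difference in log2 fold change, knockdown minus control (x axis, linear between −1 and 1 and logarithmic beyond), for each transcript of the 14 synthetase genes with several transcripts in both tables, with filled circles for coding and open circles for non-coding accessions. HARS1 and TARS1 span from below −9 to above 2, while transcripts of IARS1, SARS1, KARS1 and NARS2 lie close together.

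HARS1 shows this most plainly. Beside the principal transcript near 0, its other 4 were at 1.22, −0.78, 1.25 and −0.94 in control and at −1.41, 0.84, −8.08 and 3.55 after knockdown, in that order, per the authors' deposited tables. The gene's mean difference of −1.15 is thus the balance of transcripts from −9.32 to 4.50, with the principal one at 0.05. TARS1, the main cytosolic threonyl enzyme, had coding transcripts at 0.00 and 0.01 in control and at −0.02 and −0.29 after knockdown per the authors' deposited tables. Its non-coding transcripts were at 9.59, −1.44 and −1.09 in control and at −0.32, 0.93 and 0.06 after knockdown per the authors' deposited tables, and the first of these gives the gene its difference of −1.33. The mitochondrial valyl enzyme VARS2 had its principal transcript at −0.03 in control cells and 1.62 after knockdown per the authors' deposited tables. Its others were at −7.11 and 1.33 in control and at −1.45 and 0.53 after knockdown per the authors' deposited tables. Here the principal transcript itself differed by 1.67, the largest value among principal transcripts of the members.

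EARS2, the mitochondrial glutamyl enzyme, was the other member whose principal transcript differed by more than 1, at 0.21 in control cells and −0.99 after knockdown per the authors' deposited tables. Its further transcripts had the opposite order, −0.69 and 0.81 for the coding and −0.51 and 1.20 for the non-coding one per the authors' deposited tables. TARS2, the mitochondrial threonyl enzyme, had its principal transcript at −0.34 and −0.73 per the authors' deposited tables, while another coding one was at −3.03 and −0.56 and a non-coding one at 0.62 and 1.47. A TARS2 transcript at 5.83 and another at −0.44 were listed for control cells alone per the authors' deposited table. WARS2, the mitochondrial tryptophanyl enzyme, had a longer coding form at −0.38 and −0.84 and a shorter one at 0.52 and 1.15 per the authors' deposited tables, so each lay on its own side of 0 in both cell populations. SARS2, the mitochondrial seryl enzyme, was at −0.03 and −0.40 per the authors' deposited tables, and a second accession, listed for control cells only, was at −1.03.

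CARS1, the cytosolic cysteinyl enzyme, had its principal transcript at 0.17 and 0.13 per the authors' deposited tables. Its other coding transcripts were lower, at −0.15, −0.65 and −1.18 in control and at −1.04, −1.03 and −1.68 in knockdown cells, and the non-coding one was at −0.01 and 0.34 per the authors' deposited tables. FARSB, the beta subunit of phenylalanyl-tRNA synthetase, was at 0.13 and 0.34 by its coding and at 0.49 and −0.53 by its non-coding transcript per the authors' deposited tables. SARS1, the cytosolic seryl enzyme, had a coding transcript at 0.19 and 0.06 and a non-coding one at −1.22 and −1.39 per the authors' deposited tables, a gap that was alike in both cell populations. The 4 coding transcripts of WARS1, the cytosolic tryptophanyl enzyme, lay between 0.07 and 0.62 in control and between −0.38 and 0.48 after knockdown per the authors' deposited tables. NARS2, the mitochondrial asparaginyl enzyme, had both transcripts between −0.15 and −0.09 per the authors' deposited tables.

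RBMS1 is known to bind AU-rich motifs such as AUAUA, and the longest 3′UTR among each gene's listed coding transcripts was searched for these letters, as ATATA on the sense strand with overlapping matches counted. A match was found in 14 of 36 members (38.9%), against 58.5% of 11522 genes with a 3′UTR. Member 3′UTRs were short, with a median of 482 bases against 1117 for all genes. Among 3′UTRs of 226 to 987 bases, the middle range of the members, 7 of 18 members (38.9%) and 38.4% of all genes held a match. Most matches were in IARS2 (chromosome 1, 220094132 to 220148041), with 8 in 406 bases. IARS1 and TARS1 had 4 each, TARS3 had 3 in 984 bases and MARS2 had 2 in 1200. IARS2, TARS3 and MARS2 are 3 of the 7 members with a match and 1 listed transcript, beside YARS1, LARS2, PARS2 and YARS2. Windows around some matches of these 3 are shown as examples, 5′ to 3′ from GENCODE 29, with the match in capitals. Positions are of the first base of the match, counted from the start of the 3′UTR.
IARS2 position 70: ggattatttacaATATAggaaagaaagcc
IARS2 position 186: aaagaattatgtATATAtacatgcagaaa
IARS2 position 202: atacatgcagaaATATAtatgtgtgtgtg
IARS2 position 252: atatctcttcctATATAtatccatagtgg
TARS3 position 909: aatctcttttcaATATActgatcatttag
MARS2 position 1086: atctttaatacaATATAgaaattgtgtaa
The centred differences of these 3 mRNAs were −0.06 for IARS2, −0.02 for TARS3 and 0.07 for MARS2. Those of the other 4 were −0.01 for YARS1, 0.03 for LARS2, 0.13 for PARS2 and −0.21 for YARS2. Among members with 1 listed transcript, 7 with a match ran from −0.21 to 0.13 with a median of −0.01, and 13 without one ran from −0.19 to 0.17 with a median of 0.01. The corresponding medians over all genes with 1 listed transcript were −0.01 with and 0.02 without a match. A match is only a string of letters, and binding was not measured in these files.

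Partners of the synthetases in tRNA charging, a list of 20 genes, had a control median of 0.09 and a knockdown median of 0.12. Above 0 were 14 and 11 of them, against 45.9% and 46.6% of all genes. AARSD1, which edits mischarged tRNAs for alanine, was at 0.31 and 0.32 per the authors' deposited tables. DTD1, a deacylase that clears D-amino acids from tRNA, was at 0.47 and 0.36 per the authors' deposited tables. DTD2, the related deacylase, was at 0.01 and −0.02 per the authors' deposited tables. Of the amidotransferase that makes glutaminyl-tRNA in mitochondria, QRSL1 was at −0.21 and −0.27 and GATB at 0.23 and 0.13 per the authors' deposited tables. GATC, its remaining subunit, was at 0.32 and 0.21 by its coding transcript per the authors' deposited tables. MTFMT, which formylates mitochondrial methionyl-tRNA, was at 0.10 and 0.22, and TRNT1, which adds the CCA end of tRNAs, at 0.08 and 0.11 per the authors' deposited tables. EEF1A1 and TUFM, the factors that bring charged tRNA to cytosolic and mitochondrial ribosomes, were at 0.41 and 0.43 in control and 0.19 and 0.38 after knockdown per the authors' deposited tables.

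The 4 listed genes of the selenocysteine pathway, which remodels the product of the seryl enzyme, had a control median of −0.27, with 3 below 0. PSTK was at −0.37 and SEPSECS at −0.45 in control cells per the authors' deposited table. In knockdown cells they were at −0.17 and −0.54, and EEFSEC, the selenocysteine elongation factor, was at 0.02 and 0.16 per the authors' deposited tables. SECISBP2 had a mean of −0.18 in control cells and −0.06 after knockdown over its 3 transcripts of the authors' deposited tables, and PTRH2, a hydrolase of peptidyl-tRNA, −0.49 and −0.55 over 2. The centred difference lay within 0.25 of 0 for 18 of the 20 partners, against 56.3% of all genes. The other 2 were GATC at −0.80, through a non-coding transcript at 2.60 and 1.07, and MTRFR, a mitochondrial release factor homologue, at −2.89, through a transcript at 2.26 and −3.96 per the authors' deposited tables.

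The amino acid response, which raises transcription of many cytosolic synthetases, was set beside them with a list of 25 genes. Its control median was −0.17, and 9 of 25 lay at −1 or below, against 1 of 36 synthetases and the 10.7% of all genes. ATF4 itself was at −1.38 in control cells and −1.36 after knockdown, as the mean of 2 transcripts of the authors' deposited tables. Also at −1 or below in control cells, and named after their values had been seen, were TRIB3, DDIT4, DDIT3, VLDLR, SESN2, CEBPB, CHAC1 and ATF3. The last of these rests on 1 transcript at −9.74, beside 3 at 1.18, 1.80 and 2.41 per the authors' deposited table. CHAC1 had transcripts at −2.72 and 0.46 per the authors' deposited table. DDIT4, an inhibitor of mTORC1 signalling, was at −2.21 and −2.07, and SESN2, a leucine sensor, at −1.72 and −0.90 per the authors' deposited tables. Further genes among the 9 of the list with 1 listed transcript were also named after their values had been seen. PHGDH, the entry enzyme of serine synthesis, was at 0.26 and 0.14 and PSPH, its last enzyme, at −0.12 and −0.15 per the authors' deposited tables. SLC7A5 was at −0.09 and −0.86, SLC7A11 at −0.15 and −0.37 and STC2 at −0.09 and 0.11 per the authors' deposited tables. The centred differences of SLC7A5, SLC7A11 and STC2 were −0.75, −0.20 and 0.21. In knockdown cells 7 of 23 measured genes lay at −1 or below, against 9.49% of all genes. ASNS is among these at −2.27 through 1 transcript listed for knockdown cells alone, at −9.83 per the authors' deposited table. Its others there were at −0.40, 0.15 and 0.99, and CEBPG had transcripts at −2.82 and −0.49 per the authors' deposited table. The largest centred differences were 0.95 for SLC3A2, 0.93 for VLDLR and 0.84 for SESN2, and the smallest −1.17 for ATF3, −1.01 for SHMT2 and −0.79 for CEBPG. SESN2 has 1 listed transcript, and the other 5 are means over several.

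**Figure D4:**
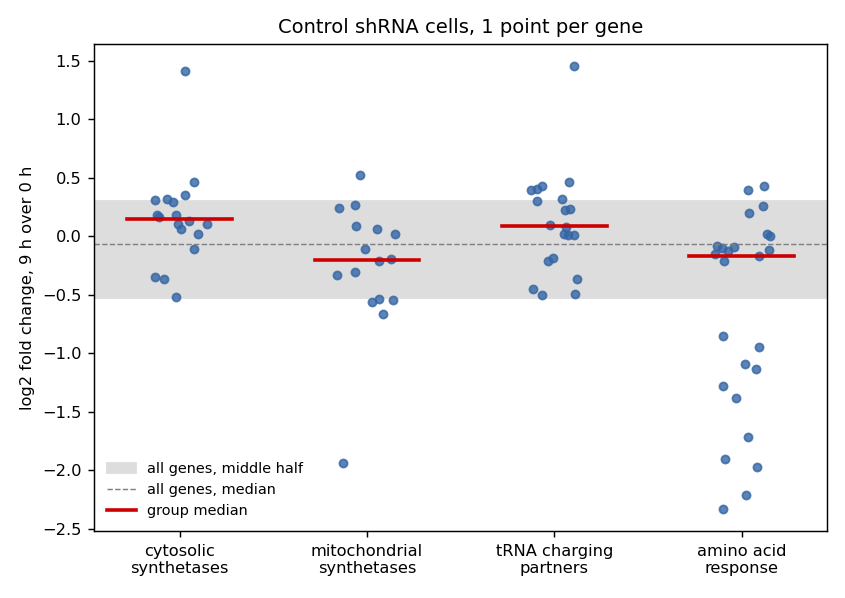
Log2 fold change at 9 h over 0 h in control shRNA cells (y axis), 1 point per gene as the mean over its listed transcripts, with group medians as red lines and the quartiles and median of all genes as a grey band and dashed line. Cytosolic synthetases have a median of 0.15, mitochondrial ones −0.20, tRNA charging partners 0.09 and amino acid response genes −0.17, with a lower tail of 9 genes at −1 or below.

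Some members overlap other genes, and whether the authors' counting used strand is not given in the sources used here. In GENCODE 29, 14 members have an exon that overlaps an exon of a gene on the opposite strand and 2, HARS2 and SARS2, one on the same strand. MARS1 ends against DDIT3, a transcription factor of the stress response, and the 2 had unlike values, with DDIT3 at −1.97 in control cells and −1.35 after knockdown, as means over transcripts of the authors' deposited tables. Pseudogenes named after them are annotated for 11 members, AARS1, NARS1, RARS1, GARS1 and KARS1 among them, and reads shared with such copies could not be assessed from the tables.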

How the data were processed

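SW480 cells were measured in 8 libraries of ribosomal RNA-depleted RNA. For either shRNA the deposited file pairs RefSeq accessions with a column named logFC, per the file headers. These log2 fold changes were computed by the authors before deposit from libraries already combined, and STAR 2.5, Cufflinks, Cuffdiff and hg38 are listed, without roles, in the submitters' processing notes. That the base is 2 was taken from Cuffdiff's usual output. Base, direction, library scaling and the rule for listing a transcript are stated in none of the sources used. The direction was read from MYC, FOS and JUN, short-lived mRNAs at −1.44, −1.61 and −1.01 in the authors' deposited control table.

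Of 22468 accessions, 22132 received a symbol from the RefSeq gene table (GRCh38.p14) and 204 from GENCODE 29, and 132 without one were left out. The median difference of all 12472 genes in both tables, −0.02, was subtracted. A size of 1 on the log2 scale was counted in each direction. All 36 members are named, as are the partners except 1 whose values are not reported here, and from the amino acid response ATF4, the top 3 and the bottom 3 by centred difference; the further genes of that list were named after their values had been seen. Members, lists and rules were chosen with earlier results of these data known. 3′UTRs under 20 bases were left out. Python 3.11.15, pandas 2.3.3 and scipy 1.17.1 were used, and the gene-level code was tested on simulated data.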

Additional observations from a re-analysis of the deposited data

How the results depend on the processing

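No paired analysis was possible because the tables carry no values of single libraries, and for the same reason no library could be left out. The cytosolic minus mitochondrial gap between medians had the same sign in control cells under every alternative run, from 0.18 with the smallest-value transcript to 0.41 with means of members. It was 0.32 with the median over transcripts, 0.33 with coding accessions, 0.31 for genes with 1 listed transcript, and 0.29 with each transcript counted once, with GARS1 and KARS1 as mitochondrial, or with principal transcripts. In knockdown cells the same gap was 0.18, 0.20, 0.24, 0.22, 0.21, 0.0011 and 0.12 with the median over transcripts, coding accessions, the smallest-value transcript, 1 listed transcript, each transcript counted once, and GARS1 and KARS1 as mitochondrial or as cytosolic, and 0.26 with means and 0.37 with principal transcripts. For the difference between cell populations the gap was −0.13 with the median over transcripts, −0.14 with coding accessions or with GARS1 and KARS1 as cytosolic, −0.079 with 1 listed transcript, −0.11 with each transcript counted once and −0.43 with means. It was −0.00051 with principal transcripts and turned to 0.021 with the smallest-value transcript. With a size of 0.5 in place of 1, 3 members lay at or above it in the difference, and with coding accessions 2 lay at 1 or above. Members at −1 or below numbered 1 with coding accessions and 1 with principal transcripts. Read depth is unknown, so its part in the isoform values was not tested.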
